A study of Mus musculus with 8 samples.

Results

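Polycomb group proteins keep developmental genes silent in pluripotent cells by marking histones. Polycomb repressive complex 2 (PRC2) methylates lysine 27 of histone H3 through Ezh2 or its paralog Ezh1, held in a core with Eed and Suz12, while accessory subunits such as Jarid2 and Mtf2 bring the core to CpG islands. Polycomb repressive complex 1 (PRC1) ubiquitinates histone H2A through Rnf2 (Ring1B) or Ring1 (Ring1A). It exists in canonical forms, where a chromobox protein such as Cbx7 reads the methylated histone, and in variant forms built around other partners, among them Pcgf6. The subject here is the RNA of these 10 subunits, 6 of PRC2 and 4 of PRC1. Its members are all probe sets annotated to exactly 1 of the 10 symbols, which gave 34 of the 45037 probe sets on the array that are not controls.

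The 8 samples were mouse induced pluripotent stem (iPS) cell clones, 4 derived with ascorbic acid (vitamin C) and 4 derived without it. All came from embryonic fibroblasts (MEFs) of the Col-OKSM reprogrammable mouse, in which doxycycline turns on Oct4, Sox2, Klf4 and cMyc. Both groups grew on irradiated feeder MEFs in serum medium that held LIF and doxycycline, and feeders were reduced by preplating before RNA isolation. The labels give no age or sex, and do not say whether clones of a group share an embryo or a culture. The p-values therefore reflect only how far these clones scatter, which may be technical in part.

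Each clone was read on 1 Affymetrix mouse 430_2 3'-IVT array, which reports a signal for each probe set, a group of short probes near the 3' end of a transcript. The median signal of the arrays was 134 to 156, correlations between arrays were 0.970 to 0.977 on the log2 scale, and no array stood apart. The number of arrays limits the precision. The 12 pluripotency markers were bright in both groups. Of these, Oct4, Sox2 and Klf4 are also among the factors that doxycycline turns on. Whether their signals include transcripts from that source was not tested. Pou5f1 (Oct4) averaged 10295 ± 948 in clones derived with ascorbic acid and 11283 ± 292 in those derived without it, and Nanog averaged 8948 ± 891 with it and 9709 ± 294 without it (signal ± SD, n = 4; adjusted p = 0.844 for both by limma). Differences below are with minus without ascorbic acid on the log2(signal + 16) scale, and a gene passes at an adjusted p under 0.05 over all 13125 tested genes.

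All 10 Polycomb genes had a probe set above the limit for dim signals (the dimmest 40% were left out), and none of them passed the test. The count of 0 of 10 stands against 3 of 13125 genes tested, a share of 0.0229%, all 3 higher with ascorbic acid. At an unadjusted limma p under 0.05 the counts were 0 of 10 members and 765 of 13125 genes (5.83%). The member count was 1 under 3 alternative settings and in 4 of the 8 fits that left out 1 clone, for Ezh1, Eed or Ring1. The signals of the groups overlapped in all 10 members, while they were fully apart in 3.63% of all tested genes. Of the members 5 had a higher and 5 a lower mean with ascorbic acid, and the median difference was 0.0011 log2, beside -0.0042 over all tested genes. On the brightest probe set of each gene the differences were small in size, from -0.11 for Ring1 to 0.094 for Ezh1. The 95% interval of the fold there (with over without) ran from 0.759 to 1.13 in Ring1. It stayed between 0.857 and 1.24 in the other 9 genes. These bounds do not cover the other probe sets. An Ezh1 probe set of almost the same brightness was at 0.41 log2 (95% interval 0.15 to 0.66) and did not pass (limma, adjusted p = 0.755).

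**Figure D1:**
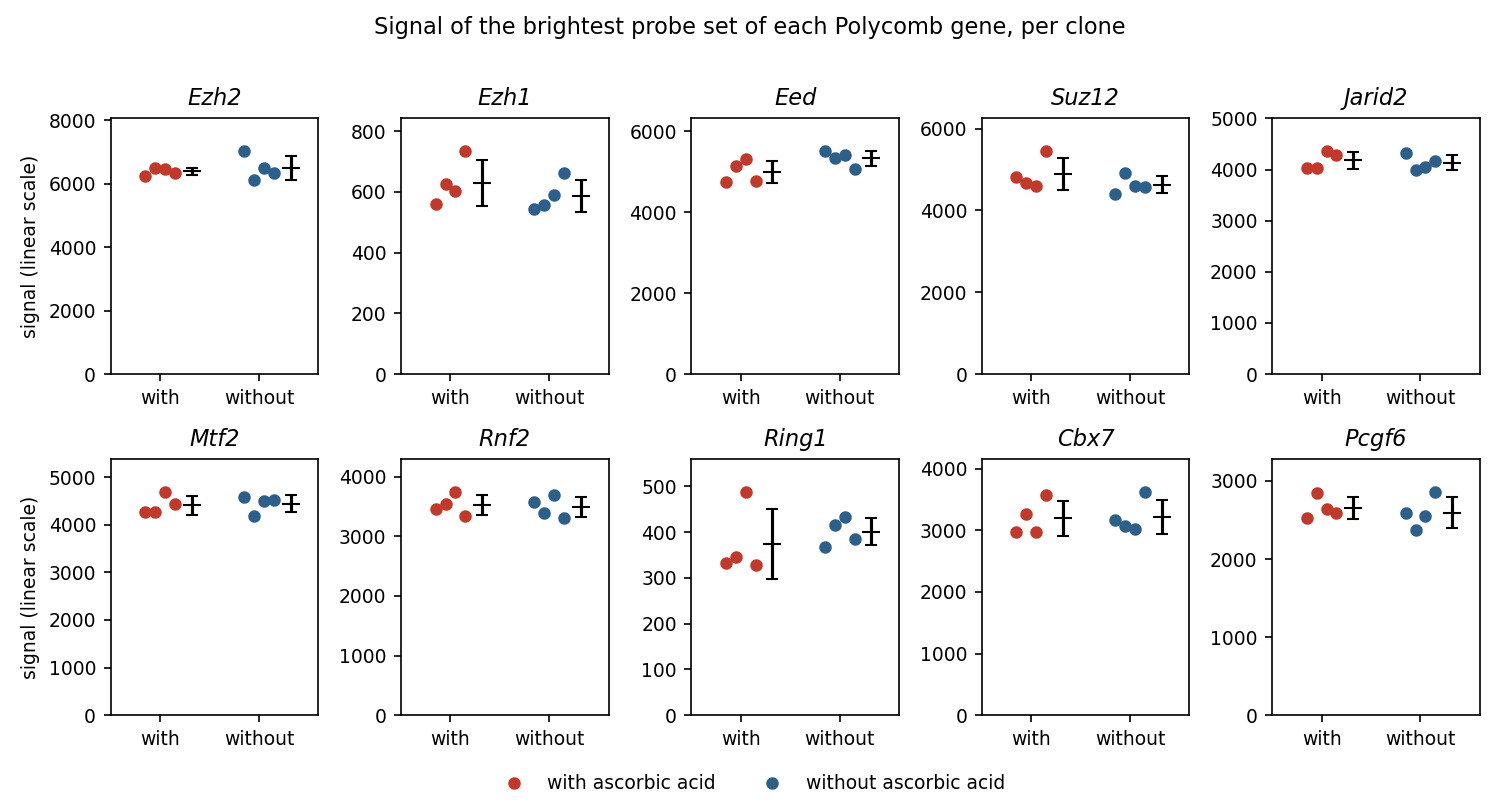
Signal of the brightest probe set of each of the 10 Polycomb genes (linear scale from 0), 1 point per clone, red with and blue without ascorbic acid; the black marks give the mean and SD of 4 clones. The points of the groups overlap in every panel, and Ring1 has the widest scatter.

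Ezh2, the main H3K27 methyltransferase of dividing cells, was steady across clones. Its only probe set (1416544_at) had signals of 6255, 6492, 6471 and 6330 in clones 1 to 4 with ascorbic acid, against 7023, 6118, 6484 and 6343 in clones 1 to 4 without. Both the highest and the lowest clone were in the group without ascorbic acid, so the group with it lay inside the range of the other. The difference was -0.022 ± 0.058 log2 (SE; limma, adjusted p = 0.971), with a 95% interval of 0.903 to 1.07 for the fold.

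Ezh1, the paralog with weaker methyltransferase activity, had differences of unlike size on its 2 probe sets above the dim limit. Its brightest one (1418290_a_at) had signals of 559, 625, 602 and 734 in clones 1 to 4 with ascorbic acid, against 544, 557, 589 and 661 without. The ranges overlapped in part, with 1 clone with ascorbic acid above the shared range and 2 clones without it below. The difference was 0.094 ± 0.099 log2 (SE; limma, adjusted p = 0.919). The other probe set above the dim limit (1449023_a_at) had signals of 630, 828, 628 and 701 with, against 493, 504, 458 and 630 without. Here the groups nearly parted, since clone 4 without ascorbic acid alone reached the range of the other group. The difference on it was 0.41 ± 0.12 log2 (SE; 95% interval 0.15 to 0.66), and it did not pass over all 27022 probe sets (limma, unadjusted p = 0.00436, adjusted p = 0.755). These 2 probe sets were almost equally bright, at a mean signal of 609 each over the 8 clones, so the choice of the brightest for Ezh1 was close to a tie. In log2 units, 1449023_a_at stood above 1418290_a_at by -0.064 to 0.40 in the clones with ascorbic acid and by -0.35 to -0.069 in those without. The other 2 Ezh1 probe sets were below the dim limit, with group means of 32.5 to 70.3. Which transcripts each probe set reads was not tested.

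**Figure D2:**
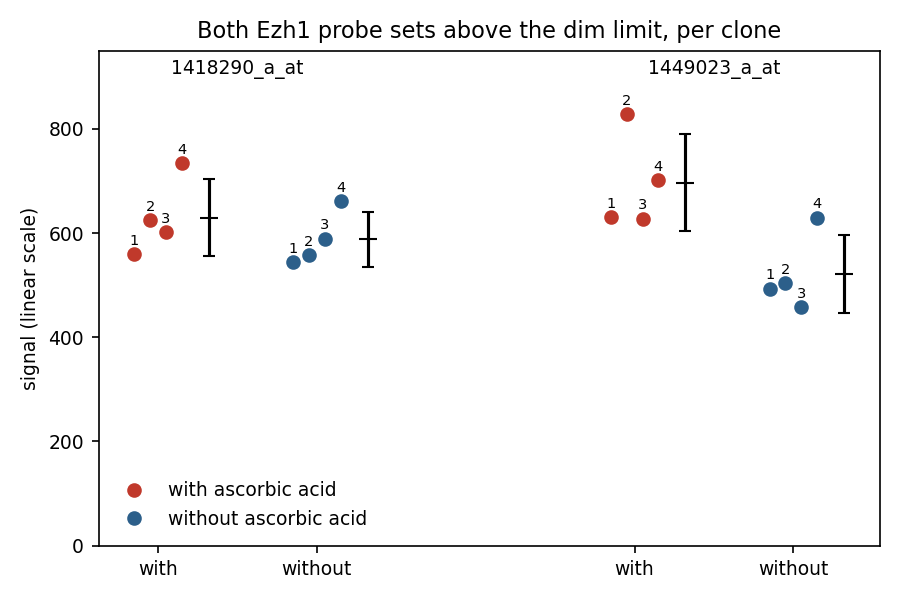
Signal (linear scale from 0) of both Ezh1 probe sets above the dim limit, with the clone number over each point; red is with and blue is without ascorbic acid, and black marks give the mean and SD of 4 clones. On 1418290_a_at the groups overlap, and on 1449023_a_at 3 of the 4 clones without ascorbic acid lie below all clones with it.

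The start regions of the Ezh2 and Ezh1 genes are shown because these paralogs fill the same place in PRC2 and are compared with each other below. Each sequence runs from 250 bases before to 50 bases after the start of the gene (RefSeq, GRCm38.p6), with matches to the searched motifs in capitals.
Ezh2, chr6:47594981-47595280, minus strand: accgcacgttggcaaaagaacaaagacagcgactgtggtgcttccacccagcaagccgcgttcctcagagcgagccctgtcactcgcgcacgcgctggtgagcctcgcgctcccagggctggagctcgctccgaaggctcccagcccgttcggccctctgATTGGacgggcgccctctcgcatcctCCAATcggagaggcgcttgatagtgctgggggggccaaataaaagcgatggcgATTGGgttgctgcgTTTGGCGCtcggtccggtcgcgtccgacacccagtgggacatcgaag
Ezh1, chr11:101226414-101226713, minus strand: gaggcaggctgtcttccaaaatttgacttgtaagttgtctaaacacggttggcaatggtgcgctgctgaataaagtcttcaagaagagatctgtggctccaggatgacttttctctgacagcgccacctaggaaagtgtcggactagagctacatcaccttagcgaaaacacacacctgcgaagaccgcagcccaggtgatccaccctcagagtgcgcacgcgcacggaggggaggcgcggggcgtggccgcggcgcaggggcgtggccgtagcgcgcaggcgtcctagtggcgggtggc
The motifs were 2 E2F-type sites, TTTGGCGC and TTTCCCGC, and the CCAAT box (CCAAT), each searched on both strands. The search allowed overlapping matches, and those marked above do not overlap. The Ezh2 region holds 1 match to TTTGGCGC, found in 0.514% of 32851 promoters of this length, and 3 to CCAAT, found in 37.4%. The Ezh1 region holds no match to these letters. Both are rich in CpG dinucleotides, with 31 in Ezh2 and 23 in Ezh1, where the median promoter has 7. Of the 12 start regions listed for the 10 genes, 11 were above that median, and the exception was the second start of Mtf2, with 2. Either E2F-type site was found in 1.56% of the 32851 promoters, and in 2 of the 12 start regions, those of Ezh2 and Suz12. These matches describe the letters of the sequence, not binding.

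Eed, the subunit that binds trimethylated H3K27 and stimulates the enzyme, had the smallest p among the brightest probe sets of the 10 genes. Its brightest probe set (1448653_at) had signals of 4751, 5144, 5307 and 4773 with ascorbic acid, against 5509, 5340, 5426 and 5068 without. In the group with ascorbic acid 2 clones lay below all others, and the remaining 2 were within the range of the group without. The difference was -0.096 ± 0.058 log2 (SE; limma, unadjusted p = 0.125, adjusted p = 0.844). The second Eed probe set was below the dim limit, with group means of 84.5 with and 93.9 without. Outside the brightest probe sets, 1 each of Ezh1, Cbx7 and Pcgf6 had a smaller unadjusted limma p (0.00436, 0.0914 and 0.124).

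Suz12, the scaffold of the PRC2 core, was read by 6 probe sets, all above the dim limit. The brightest (1427253_s_at) had signals of 4815, 4668, 4602 and 5447 with ascorbic acid, against 4409, 4915, 4602 and 4578 without. Clone 4 with ascorbic acid was the highest and the other clones of both groups were mixed. The difference was 0.076 ± 0.066 log2 (SE; limma, adjusted p = 0.895), and without clone 4 with ascorbic acid it was 0.022 (adjusted p = 0.984). Over the 6 probe sets 5 had a higher and 1 a lower mean with ascorbic acid, with differences of -0.025 to 0.14 log2. These probe sets are annotated to the same gene, were read on the same arrays and are not independent.

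The accessory subunits Jarid2 and Mtf2 belong to different forms of PRC2, and both were steady. Jarid2, a Jumonji family protein without demethylase activity, had signals on 1422697_s_at of 4033, 4038, 4359 and 4280 with ascorbic acid, against 4326, 3985, 4056 and 4167 without. The highest clone exceeded the lowest by 1.09-fold, the narrowest span among the brightest probe sets of the 10 genes. The difference was 0.015 ± 0.055 log2 (SE; limma, adjusted p = 0.978). Of its 3 probe sets 2 had a higher and 1 a lower mean with ascorbic acid. On 1422698_s_at the groups touched without parting, at 3791 to 3969 with and 3682 to 3800 without.

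Mtf2, a Polycomb-like protein that binds CpG-rich DNA, had signals on 1418516_at of 4264, 4259, 4681 and 4444 with ascorbic acid, against 4592, 4182, 4492 and 4514 without. The groups were fully mixed, with a difference of -0.011 ± 0.057 log2 (SE; limma, adjusted p = 0.983). Over its 5 probe sets above the dim limit the differences ran from -0.089 to 0.070 log2, 4 of them lower and 1 higher with ascorbic acid. A sixth probe set (1459811_at) was below the limit, at 58.7 ± 16.9 with and 36.7 ± 14.2 without (SD, n = 4 clones), and was not tested.

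Rnf2, the main H2A ubiquitin ligase of PRC1 in mouse pluripotent cells, had signals on 1424873_at of 3463, 3534, 3737 and 3348 with ascorbic acid, against 3581, 3393, 3686 and 3301 without. The groups covered the same range, with a difference of 0.013 ± 0.058 log2 (SE; limma, adjusted p = 0.981). The next brightest Rnf2 probe set (1451519_at) was at -0.029 log2 and the third above the limit at -0.094 log2, so the sign was not the same across them. A further 2 Rnf2 probe sets were below the dim limit.

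Ring1, the paralog of Rnf2, had the largest difference in size and also the widest scatter among the brightest probe sets of the members. Its only probe set (1422647_at) had signals of 333, 346, 487 and 328 with ascorbic acid, against 368, 416, 434 and 386 without. In the group with ascorbic acid 3 clones lay below all clones without it, and clone 3 lay above them all. The difference was -0.11 ± 0.13 log2 (SE; limma, adjusted p = 0.928), and leaving out 1 clone gave -0.24 to -0.060. The larger value came without clone 3 with ascorbic acid (adjusted p = 0.709) and the smaller without clone 4 with it (adjusted p = 0.980).

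Cbx7, the main chromobox protein of canonical PRC1 in mouse embryonic stem cells, had signals on 1433557_at of 2979, 3260, 2971 and 3575 with ascorbic acid, against 3173, 3063, 3018 and 3618 without. Clone 4 was the highest in both groups, and the difference was -0.010 ± 0.077 log2 (SE; limma, adjusted p = 0.989). A dimmer Cbx7 probe set (1449713_at) had a larger difference, -0.32 ± 0.17 log2 (SE; limma, unadjusted p = 0.0914, adjusted p = 0.882). Its signals were 156, 110, 115 and 159 with ascorbic acid, against 168, 175, 203 and 140 without, so that a single clone without the supplement fell within the range of the clones with it.

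Pcgf6, which defines a variant PRC1 that silences germline genes in mouse embryonic stem cells, had signals on 1424081_at of 2522, 2850, 2637 and 2594 with ascorbic acid, against 2587, 2375, 2545 and 2854 without. The groups overlapped over most of their range, with a difference of 0.035 ± 0.067 log2 (SE; limma, adjusted p = 0.959). The second Pcgf6 probe set in brightness (1454120_a_at) varied more, from 1997 to 2810 with and from 1738 to 2541 without, and its difference was 0.20 ± 0.12 log2 (SE; limma, adjusted p = 0.882). The third (1432108_at) was at -0.11 log2.

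Of all 34 Polycomb probe sets, 28 were above the dim limit, a mean signal of about 93.7, and 13 of these had a higher and 15 a lower mean with ascorbic acid. None of the 28 passed (limma over 27022 probe sets, 0.0481% of which passed), and the groups overlapped in all 28, while they were apart in 3.4% of all probe sets. The one with an unadjusted p under 0.05 was 1449023_a_at of Ezh1, 1 of 28 beside 5.55% of all probe sets. All probe sets above the limit pointed the same way in 5 of the 10 genes. These were Ezh1 and Cbx7, and also Ezh2, Eed and Ring1, which had 1 such probe set each.

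**Figure D3:**
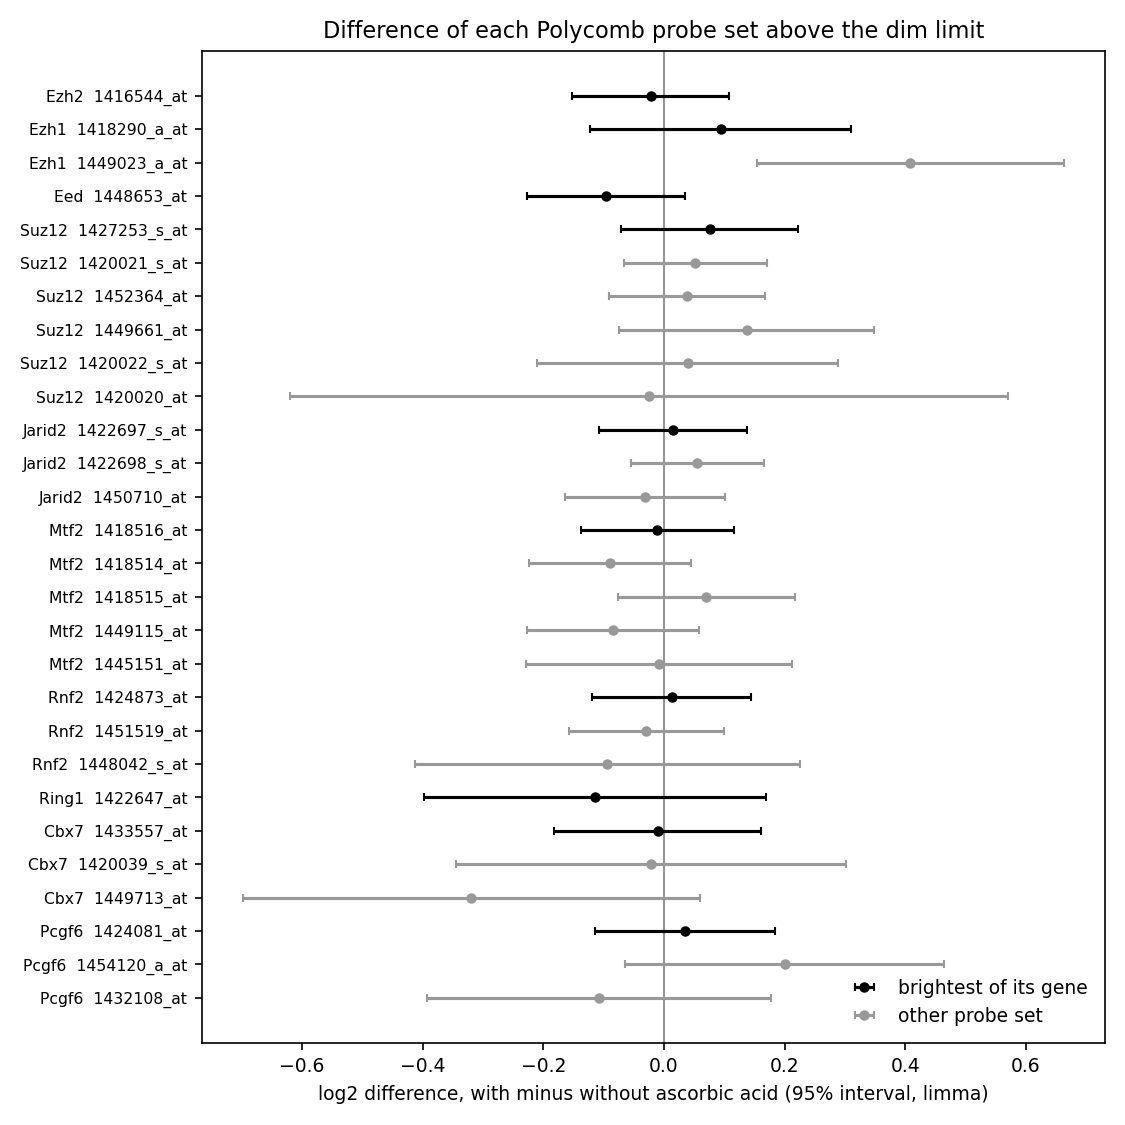
Log2 difference (with minus without ascorbic acid) and its 95% interval for the 28 Polycomb probe sets above the dim limit, black for the brightest of each gene and grey for the others. The intervals include 0 for every probe set except 1449023_a_at of Ezh1, which did not pass after adjustment.

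The spread between clones of the same group was small for most members. The median residual SD of the 10 genes was 0.080 log2, beside 0.151 over all tested genes. Bright probe sets vary less on these arrays, and 8 of the members had a mean signal of at least 2000. Their median SD was 0.068, beside 0.094 over the 2197 genes as bright. Ring1 and Ezh1, the dimmest members, had the largest SDs, 0.198 and 0.144. Clone 3 with ascorbic acid was the highest clone for 4 of the 10 genes and clone 2 without it the lowest for 4, but the median deviation of the members in any clone was only -0.061 to 0.026 log2.

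Paired subunits that take the same place in a complex, or that mark different forms of it, were compared within each array. Their log2 signals were subtracted clone by clone, and the group means of that difference were tested by exact permutation (two-sided, 70 assignments, smallest possible p 0.0286). The value itself compares different probes and carries no meaning, only its change between groups does. The Ezh2 minus Ezh1 value was lower by 0.12 with ascorbic acid (3.32 ± 0.16 with, 3.43 ± 0.17 without, SD, n = 4 each; exact permutation p = 0.371, 0.495 adjusted over the 4 pairs). Leaving out 1 clone moved this change widely. It was -0.37, -0.45 and -0.37 without clone 1, 2 or 3 of the group without ascorbic acid, where 1449023_a_at was the brighter Ezh1 probe set (exact permutation p = 0.0571 each). It was -0.038 without clone 4 with ascorbic acid (exact permutation p = 0.686). Averaging all Ezh1 probe sets above the dim limit gave -0.27 (exact permutation p = 0.0857), and the second Ezh1 probe set, an alternative chosen after its values were seen, gave -0.43 (exact permutation p = 0.0571). For Rnf2 minus Ring1 the change was 0.13 (exact permutation p = 0.371), for Jarid2 minus Mtf2 0.026 (p = 0.257) and for Cbx7 minus Pcgf6 -0.045 (p = 0.514). Without clone 3 with ascorbic acid the Rnf2 minus Ring1 change was 0.23 (exact permutation p = 0.0571) and that of Cbx7 minus Pcgf6 -0.014 (p = 0.886). The Cbx7 minus Pcgf6 change was -0.11 without clone 4 with ascorbic acid and -0.16 when probe sets were averaged (exact permutation p = 0.0571 each). None of the 4 changes had an exact permutation p under 0.05 in any of these fits. With 1 clone left out there were fewer than 70 assignments. After adjustment over the 4 pairs, 1 pair alone at the smallest possible p could not pass, so the adjusted test could not single out a pair. With all clones and the brightest probe sets the groups overlapped in each pair.

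**Figure D4:**
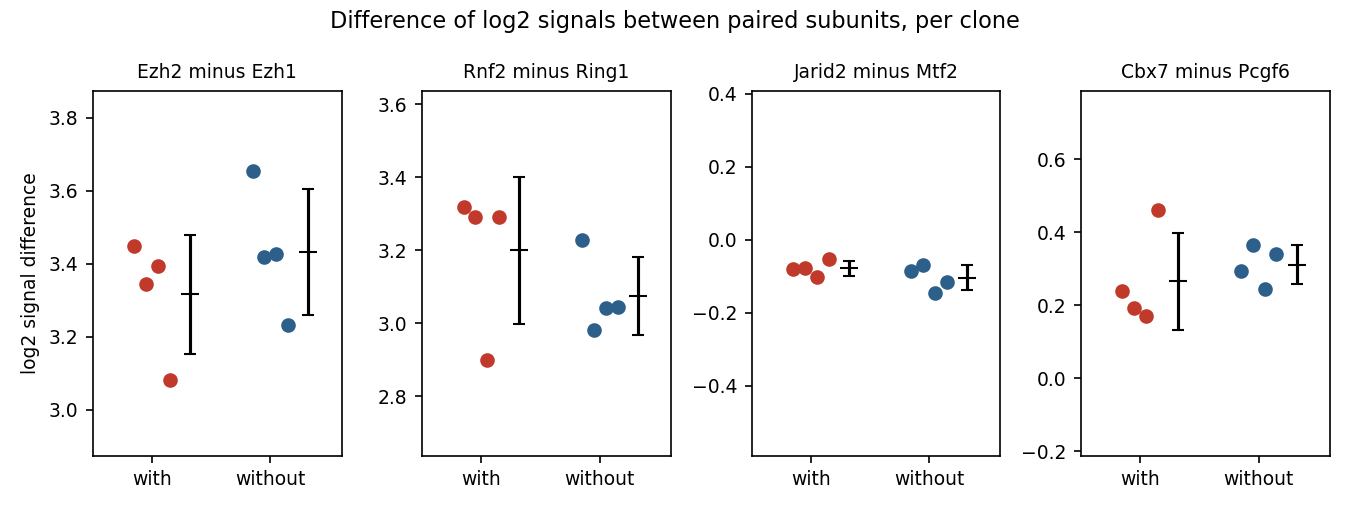
Difference of log2 signals between paired Polycomb subunits in each clone (red with, blue without ascorbic acid), with mean and SD in black; each vertical axis spans 1 log2 unit and does not start at 0. The values of the groups overlap in all 4 panels, and those of Jarid2 minus Mtf2 are the least scattered.

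The other subunits of the complexes gave the same count. Of 38 further Polycomb genes tested, 20 had a higher and 18 a lower mean with ascorbic acid and 0 passed, with a median difference of 0.012 log2. At an unadjusted limma p under 0.05 there was 1 (2.63%), beside 5.83% of all genes. The 9 other PRC2 genes had 0 passing and a median of 0.0097. The smallest p among them were those of Lcor, at -0.14 log2, of the accessory subunit Phf19, at 0.11, and of the histone-binding Rbbp4, at -0.069 (limma, adjusted p = 0.904, 0.907 and 0.924). Of the 4 Lcor probe sets above the dim limit the other 3 were higher in mean, by up to 0.16 log2, and 1 of the 4 Rbbp4 probe sets was higher. The 10 other canonical PRC1 genes had 0 passing and a median of 0.079, led by the polyhomeotic Phc3 at 0.26 (limma, adjusted p = 0.844), the chromobox gene Cbx2 at 0.12 (0.852) and Pcgf2 (Mel18) at -0.18 (0.853). The second Cbx2 probe set was at -0.047.

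Among the 19 other variant PRC1 genes 0 passed and the median was -0.020 log2. Kdm2b, whose zinc finger brings PRC1 to unmethylated CpG islands and which is itself an iron and 2-oxoglutarate dependent demethylase, had the smallest p. Its signals were 3977, 3478, 3927 and 4466 with ascorbic acid, against 3460, 3348, 3689 and 3215 without. The clone means differed by 0.20 ± 0.076 log2 (SE; limma, unadjusted p = 0.0196, adjusted p = 0.770), and clone 2 with ascorbic acid lay within the range of the group without. Both Kdm2b probe sets above the dim limit were higher in mean, by 0.17 and 0.20. Its partner Bcor was at 0.17 (limma, adjusted p = 0.844), with 3 of 3 probe sets higher in mean, and Fbrsl1 at -0.24 (0.844), with 2 of its 3 probe sets lower and 1 higher in mean.

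Enzymes that remove Polycomb marks, listed together with their Asxl partners and the Kdm6a paralog Uty, gave 0 of 9 passing, with a median of -0.0039 log2. Kdm6a (Utx), an H3K27 demethylase of the dioxygenase family, was at 0.19 on its brightest probe set (limma, adjusted p = 0.844), but 2 of its 3 probe sets above the dim limit were lower in mean. Asxl2, a partner of the H2A deubiquitinase Bap1, was at -0.22 (limma, unadjusted p = 0.0278, adjusted p = 0.812), and 3 of its 5 probe sets were higher in mean. Bap1 itself was at -0.077 (limma, adjusted p = 0.895), and its second probe set at 0.055. The 11 trithorax and MLL genes, whose H3K4 methylation opposes Polycomb silencing, had 0 passing and a median of 0.017. Paxip1 was at 0.18, Kmt2c at 0.16 and Men1 at -0.15 (limma, adjusted p = 0.844 for each).

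Developmental regulators that PRC2 is known to mark in mouse embryonic stem cells were dim in both groups. Of 66 listed genes 60 had a probe set, and 29 of these fell below the dim limit, with group means of 2.94 to 99.5. Of the 31 tested, 29 had a mean signal under 500. None passed; 21 had a higher and 10 a lower mean with ascorbic acid, the median difference was 0.11 log2. An unadjusted limma p under 0.05 was reached by 3 (9.68%), beside 5.83% of all genes. These 3 were higher in mean with ascorbic acid. Twist1, a mesenchymal transcription factor, was at 0.52 ± 0.16 log2 (SE; 213, 161, 212 and 217 with, against 163, 125, 137 and 114 without; limma, adjusted p = 0.749). Pax9, a paired box factor, was at 0.82 ± 0.28 (246, 147, 146 and 291 with, against 81.2, 133, 67.9 and 162 without; limma, adjusted p = 0.757). Hoxb13 was at 0.79 ± 0.32 (120, 103, 128 and 204 with, against 105, 28.5, 68.8 and 111 without; limma, adjusted p = 0.823). In each of these genes at least 1 clone without ascorbic acid reached into the range of the clones with it, and each had 1 probe set above the limit.

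**Figure D5:**
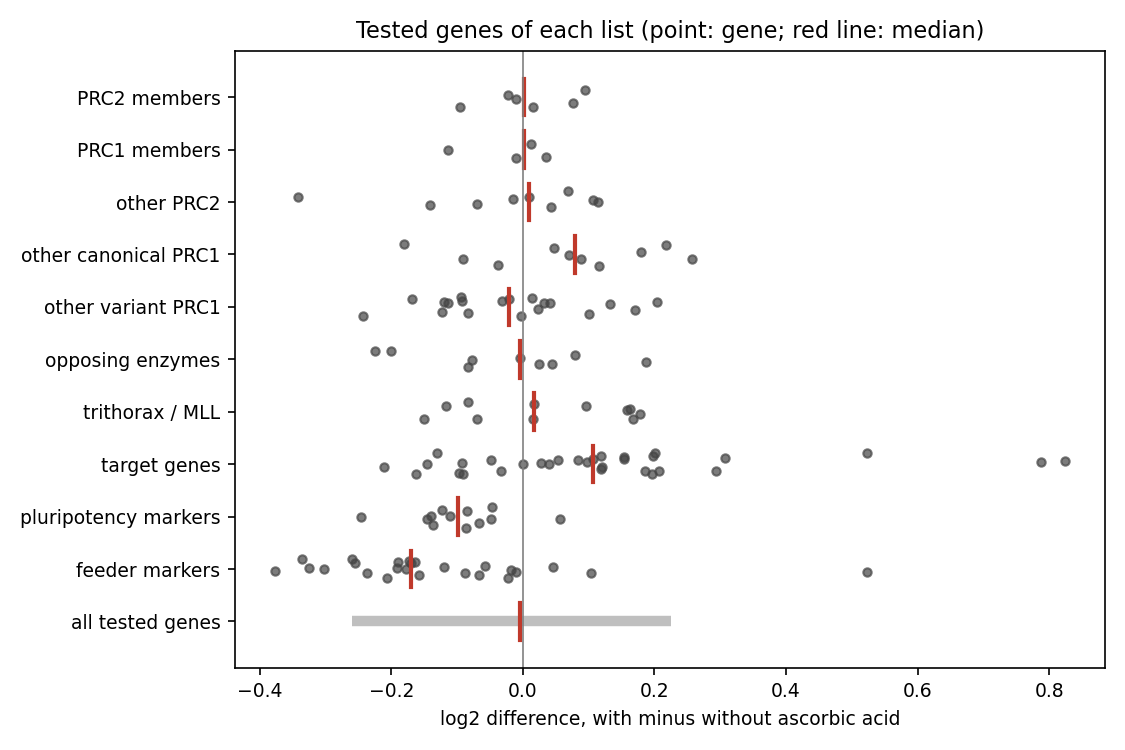
Log2 difference (with minus without ascorbic acid) of the tested genes in each list, with the list median as a red line. The endoderm and trophectoderm markers are not drawn, and the grey bar for all tested genes spans their central 90%. On the brightest probe set of each gene, the 10 members lie between -0.11 and 0.094, and the target genes extend to 0.82.

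Markers of other cells were read beside these lists. Fibroblast and feeder markers had a lower mean with ascorbic acid in 22 of 25 tested genes, with a median of -0.17 log2 and 0 passing. An unadjusted limma p under 0.05 was reached by 7 of the 25 (28%), beside 5.83% of all genes, and 6 of these 7 were lower with ascorbic acid. Postn, a matrix protein, was at -0.38 with all clones with ascorbic acid below all clones without it (limma, adjusted p = 0.749), and Twist1, on both lists, went the other way. The groups were fully apart in 1 of the 25 genes, Postn, beside 3.63% of all tested genes. The mean level of the feeder markers per clone was 9.94 to 10.23 log2 units with and 10.02 to 10.30 without ascorbic acid. That of the target genes was 7.78 to 8.03 with and 7.74 to 7.83 without. Of the feeder list Lum, Dcn, Twist2 and Fap fell below the dim limit. The pluripotency markers had a lower mean in 11 of 12 genes (median -0.099, 0 passing), with Dppa5a at -0.25. Endoderm and trophectoderm markers had 5 higher and 6 lower means of 11 tested (median -0.059, 0 passing), with Gata6 at 0.31 and Lama1 at -0.27. The second Gata6 probe set above the dim limit was at -0.018. In such bulk samples fewer cells of a type and less RNA per cell cannot be told apart, and the part of feeder RNA in the values of the members was not tested.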

How the data were processed

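The authors deposited 1 linear signal intensity for each probe set and array. GCOS (Affymetrix software) is the tool in the submitters' processing notes, and its version and algorithm were not given in the sources used here. Tested on the values, each array has a mean of 500 after trimming 2% at each end. The scaling was kept, since array medians spanned 0.199 on the log2(signal + 16) scale, just inside a limit of 0.2. That limit was met only on this scale. Without the added 16, the medians of 134 to 156 span more than 0.2 log2.

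Annotation came from GEO's platform table: 34945 probe sets have 1 symbol, 932 several and 9160 none. All 34 member probe sets matched RefSeq (GRCm38.p6) by Entrez identifier with the same symbol. Array coordinates are not given, as the files name no build.

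From log2(signal + 16), the dimmest 40% of 45037 non-control probe sets were left out, and the brightest remaining probe set stood for each gene, for 13125 of 18193 genes. Groups were taken from the labels. Genes, and separately 27022 probe sets, were tested with limma 3.58.1 (lmFit, eBayes with trend) in R 4.3.3. The tests were two-sided and adjusted by Benjamini-Hochberg over all genes or probe sets tested. Scripts were tested on simulated data. Drawings used matplotlib 3.10.9.

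Named genes are the 10 members, the 3 with the smallest p of each Polycomb, opposing and target list (none passed) and 2 of each cell marker list, with Pou5f1 and Nanog. Members and lists were chosen with earlier results of these data known. Alternatives covered scaling (quantile, median centring), the pseudocount (1, 64), the dim filter (none, 60%), the mean of probe sets, leaving out _s_at and _x_at probe sets, eBayes without trend, a replicate block and leaving out each clone. The second-brightest probe set of each member was added after seeing the data.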

Additional observations from a re-analysis of the deposited data

Results flagged for a closer look

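In 104 groups of 4 clones (52 probe sets of members and named genes), 6 (5.77%) held 1 clone far from the other 3, where chance flags about 1 in 20. Ring1 had a signal of 487 in clone 3 with ascorbic acid, against 328 to 346 in the other clones of that group. Suz12 on 1452364_at was low in clone 1 with ascorbic acid (3231, others 3631 to 3672), and Jarid2 on 1450710_at was low in clone 2 without it (2475, others 2736 to 2753). Kmt2c was high in clone 4 with ascorbic acid (877, others 754 to 765), Twist1 low in clone 2 with it (161, others 212 to 217), and Phf19 low in clone 4 without it (411, others 541 to 558). The 6 values fell in 6 different clones.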

How the results depend on the processing

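No Polycomb gene passed under any of the 10 alternatives, the one added after seeing the data or the 8 fits that left out 1 clone, and their lowest adjusted p was 0.646, for Ezh1. Over all genes 3 passed; eBayes without trend left 1 (1 higher), and leaving out 1 clone gave 2 to 4 (2 to 4 higher). The median difference of the members was 0.035 log2 under median centring and -0.019 to 0.021 with 1 clone left out. At an unadjusted limma p under 0.05 the member count of 0 was 1 under quantile normalization (Eed), the mean of probe sets and the second-brightest probe set (Ezh1), and in 4 of the 8 fits that left out 1 clone (Ezh1 in 3, Ring1 in 1). Signs turned where differences were near 0. Under median centring Ezh2 was at 0.012, Mtf2 at 0.023 and Cbx7 at 0.023. With the mean of probe sets Rnf2 was at -0.037, and with the second-brightest probe set at -0.029. Without _s_at and _x_at probe sets Jarid2 was at -0.031, and the Jarid2 to Mtf2 change at -0.020 (exact permutation p = 0.686). The cause was not tested. With 1 clone left out, the ranges that crossed 0 were -0.050 to 0.017 for Ezh2, -0.0055 to 0.037 for Jarid2, -0.040 to 0.0057 for Mtf2, -0.016 to 0.039 for Rnf2, -0.065 to 0.047 for Cbx7 and -0.0057 to 0.082 for Pcgf6. Ranges that kept their sign were 0.022 to 0.11 for Suz12, -0.13 to -0.073 for Eed and -0.24 to -0.060 for Ring1. Those of the changes between paired subunits were -0.45 to -0.038 for Ezh2 to Ezh1, 0.087 to 0.23 for Rnf2 to Ring1, 0.012 to 0.037 for Jarid2 to Mtf2 and -0.11 to -0.014 for Cbx7 to Pcgf6. With the mean of probe sets the Rnf2 to Ring1 change was 0.077, and with the second-brightest probe set those of Jarid2 to Mtf2 and Cbx7 to Pcgf6 were 0.14 and -0.22. For Ezh1 the range was 0.020 to 0.40, because the brighter of its probe sets changed with the clones used. Clones share numbers across the groups, but same-numbered clones deviated with correlations of only -0.17 to 0.012 over the tested genes, so the numbers were not taken as pairs. With clone number as a replicate block 3 genes and 0 members passed, and the paired exact permutation p of the Ezh2 to Ezh1 change was 0.125 (-0.12), the smallest such a design allows.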
